A study of Mus musculus with 14 samples.

Results

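The genes described here are 10 markers of macrophages and of Kupffer cells, the resident macrophages of the liver: Adgre1, Clec4f, Vsig4, Timd4, Cd68, Csf1r, Marco, C1qa, C1qb and C1qc. They were matched by gene symbol in 2 tables of RNA sequencing counts, and all 10 were found in both, among 16821 genes in the first table and 16095 in the second. Total RNA came from 14 libraries of MYC-driven hepatocellular carcinoma of the mouse. All tumours carried the MYC driver, and Cas9 and a guide RNA targeted 1 gene of the NRF2 pathway or, in the controls, GFP. KEAP1 holds the transcription factor NRF2 through its ETGE motif and hands it to the CUL3 ubiquitin ligase, and the stated aim of the guides was to free NRF2 from this control. The first table held 4 tumours with a guide against GFP (sgGFP, the control), 3 with a guide against Cul3 (sgCul3) and 3 with a guide against Keap1 (sgKeap1). The second table held 2 tumours whose guide edits the ETGE motif itself (sgNrf2 A and B). It also held 2 control libraries: control A repeats sgGFP tumour 2 and control B repeats sgGFP tumour 4, per their labels. Neither age, strain nor sex of the mice is given in the sources used here, and the labels do not say whether tumours of a group came from separate animals, so p-values here cover the spread between samples, which may be technical.

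Macrophages are phagocytes that take up dead cells, microbes and debris, and most of them depend on signals through the CSF1 receptor. Kupffer cells line the liver sinusoids, where they clear particles and old blood cells from the portal blood. They carry a set of surface receptors that macrophages newly derived from blood monocytes lack or acquire late, so a liver can hold macrophages with and without this set. The members fall into both kinds. Adgre1, Cd68, Csf1r, C1qa, C1qb and C1qc are expressed by macrophages in general, whereas Clec4f, Vsig4, Timd4 and Marco mark Kupffer cells or subsets of resident macrophages.

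The labels call the cell type of every library hepatocytes. Hepatocyte genes were abundant in all of them: 11 measured markers such as Alb, Apoa1 and Ttr summed to between 17065 and 93525 CPM (the reads of a gene scaled to a common total of genic reads). The 10 macrophage markers were also read in every group, at a sum of 95.2 to 698 CPM per library, so the libraries held RNA of macrophages beside that of hepatocytes. In bulk RNA, fewer cells of a type and less RNA per cell cannot be told apart. Genic reads ranged from 6333025 to 12008223 per library in the first table and from 17819333 to 20848578 in the second. At these depths a count of 0 allows 0.144 to 0.474 CPM, for counting error only.

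The promoters of the members are shown first, the Kupffer cell genes before the general ones, since these genes are read side by side in the rest of the text. RefSeq promoters (GRCm38.p6) matched 7 of the 10 members: C1qb, C1qc, Cd68, Clec4f, Marco, Timd4 and Vsig4. Adgre1 and C1qa had no entry, and Csf1r is not shown. The window searched was the 250 bases before the start that RefSeq gives each gene, which can differ from the start in GENCODE M21, from which the gene coordinates in the text are taken. Of the Clec4f window 71 bases, and of the C1qc window 151, lie inside the GENCODE gene and are not printed, which leaves 179 and 99 bases. The windows of Timd4, C1qb and Cd68 end 1, 13 and 17 bases before the GENCODE gene. Each line runs 5′ to 3′ on the strand of the gene, in lower case. Capitals mark matches on either strand to GAGGAA, the core bound by PU.1, the transcription factor that macrophage development depends on.
Clec4f, chr6:83656188-83656366, minus strand: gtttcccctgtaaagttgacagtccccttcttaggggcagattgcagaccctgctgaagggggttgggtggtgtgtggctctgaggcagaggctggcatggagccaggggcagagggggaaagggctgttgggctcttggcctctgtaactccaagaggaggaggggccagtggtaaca
Timd4, chr11:46810549-46810798, plus strand: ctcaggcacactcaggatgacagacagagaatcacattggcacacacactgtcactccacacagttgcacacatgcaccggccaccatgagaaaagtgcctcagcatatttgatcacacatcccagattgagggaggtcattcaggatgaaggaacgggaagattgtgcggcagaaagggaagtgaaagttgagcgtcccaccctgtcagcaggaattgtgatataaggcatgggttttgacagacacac
Vsig4, chrX:96293439-96293688, minus strand: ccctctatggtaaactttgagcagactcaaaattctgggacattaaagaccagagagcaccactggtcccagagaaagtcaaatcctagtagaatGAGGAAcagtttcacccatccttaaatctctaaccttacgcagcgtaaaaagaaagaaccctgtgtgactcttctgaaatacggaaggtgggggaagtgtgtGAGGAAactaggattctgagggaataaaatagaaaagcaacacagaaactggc
Marco, chr1:120505025-120505274, minus strand: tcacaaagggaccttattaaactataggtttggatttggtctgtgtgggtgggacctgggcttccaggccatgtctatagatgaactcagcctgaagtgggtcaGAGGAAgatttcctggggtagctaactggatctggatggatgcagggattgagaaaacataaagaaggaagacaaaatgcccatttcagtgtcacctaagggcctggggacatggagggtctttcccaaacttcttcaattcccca
C1qb, chr4:136886201-136886450, minus strand: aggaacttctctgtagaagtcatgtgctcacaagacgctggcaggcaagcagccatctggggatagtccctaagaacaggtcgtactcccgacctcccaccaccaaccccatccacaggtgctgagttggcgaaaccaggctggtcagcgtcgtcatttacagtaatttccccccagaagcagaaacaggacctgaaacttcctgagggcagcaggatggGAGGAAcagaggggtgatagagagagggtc
C1qc, chr4:136893066-136893164, minus strand: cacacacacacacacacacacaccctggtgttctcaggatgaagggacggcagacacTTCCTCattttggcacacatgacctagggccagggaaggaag
Cd68, chr11:69666171-69666420, minus strand: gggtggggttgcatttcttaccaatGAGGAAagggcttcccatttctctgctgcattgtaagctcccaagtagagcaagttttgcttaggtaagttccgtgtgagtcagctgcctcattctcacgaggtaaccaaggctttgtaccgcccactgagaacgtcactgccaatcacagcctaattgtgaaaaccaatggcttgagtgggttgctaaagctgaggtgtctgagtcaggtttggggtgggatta
The core was present in 5 of the 7 promoters searched and in 23.3% of 32851 RefSeq promoters of the same length. Vsig4 held 2 matches and Marco 1, while Clec4f and Timd4 held none of these letters in this window. The core of the antioxidant response element, TGACNNNGC, which NRF2 binds with its partner proteins, was matched in the window of C1qb, in that of Clec4f within the bases not printed, and in 10.2% of all promoters. The E-box CACGTG, a site bound by MYC, was matched in 0 of the 7 and in 6.02% of all promoters. No match of one motif overlapped a match of another. Such matches describe letters and show no binding.

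Compared per exon length, C1qb was the most abundant member in the sgGFP tumours at 279 ± 235 TPM (a level per length of exon, SD, n = 4). It was followed by C1qa at 174 ± 134 TPM, C1qc at 123 ± 108 and Cd68 at 121 ± 104. These genes encode the 3 chains of C1q, the recognition molecule that starts the classical complement cascade, and a lysosomal glycoprotein of phagocytes. Vsig4 followed at 13.6 ± 11.4 TPM, Csf1r at 11.4 ± 8.24, Marco at 9.77 ± 5.31, Adgre1 at 7.70 ± 6.71 and Clec4f at 7.31 ± 3.45. Timd4 was lowest at 0.816 ± 0.512 TPM. Neighbours in this order differed by less than their spread, except that Cd68 stood above Vsig4, and Clec4f above Timd4, by more than the SD of either gene of the pair.

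In the sgNrf2 tumours the order was different at its lower end. C1qb stood at 416 ± 2.02 TPM (SD, n = 2), C1qa at 276 ± 11.2, Cd68 at 254 ± 22.0 and C1qc at 177 ± 8.48, and Csf1r (28.5 ± 0.221) and Adgre1 (22.2 ± 0.363) came next. The 4 Kupffer cell genes took the last places, Vsig4 at 0.503 ± 0.562 TPM, Marco at 0.120 ± 0.0605, Timd4 at 0.106 ± 0.0536 and Clec4f at 0.0918 ± 0.0402. The tables were scaled separately, so these levels are set beside those of sgGFP without a test.

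Levels per library are given as scaled counts, the read counts divided by the size factor that the authors' DESeq scaling gave each library. Clec4f (ENSMUSG00000014542.3, GRCm38 chromosome 6, 83644542 to 83656187, minus strand) encodes a C-type lectin that in the mouse is restricted to Kupffer cells. It had 60.7, 19.9, 78.8 and 95.8 scaled counts in sgGFP tumours 1 to 4. In sgCul3 tumours 1 to 3 Clec4f had 1.38, 591 and 106, and in sgKeap1 tumours 1 to 3 it had 46.6, 880 and 51.9. Tumour 2 of each ligase guide was thus far above the other libraries, and sgCul3 tumour 1 held almost no Clec4f. The 1.38 scaled counts of that tumour correspond to 1 read. The groups overlapped.

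Timd4 (ENSMUSG00000055546.6, chromosome 11, 46810800 to 46844332, plus strand), a receptor for phosphatidylserine on dying cells, showed the same libraries at its extremes. It had 8.77, 2.30, 6.20 and 6.26 scaled counts in sgGFP, 0, 60.3 and 7.82 in sgCul3, and 7.36, 124 and 4.33 in sgKeap1. Marco (ENSMUSG00000026390.7, chromosome 1, 120474538 to 120505024, minus strand), a scavenger receptor for bacteria and particles, had 81.0, 23.0, 77.9 and 72.5 in sgGFP, 5.53, 452 and 89.9 in sgCul3, and 37.6, 197 and 13.0 in sgKeap1. Its highest level was in sgCul3 tumour 2 and its lowest in sgCul3 tumour 1. Vsig4 (ENSMUSG00000044206.3, chromosome X, 96247203 to 96293438, minus strand), a receptor for fragments of complement C3, had 120, 52.2, 53.1 and 28.6 in sgGFP. It had 1.38, 256 and 47.7 in sgCul3 and 33.5, 306 and 51.9 in sgKeap1, again with tumours 2 of both guides on top.

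The general macrophage genes followed another order of libraries. C1qb (ENSMUSG00000036905.8, chromosome 4, 136880129 to 136886187, minus strand) had 1625, 1584, 409 and 293 scaled counts in sgGFP tumours 1 to 4, 927, 888 and 740 in sgCul3 and 829, 434 and 442 in sgKeap1. The control tumours therefore spanned the whole range, with tumours 1 and 2 above and tumours 3 and 4 below every guide tumour. C1qa and C1qc, its neighbours on chromosome 4, ranged from 218 to 954 and from 222 to 1352 in sgGFP, and from 436 to 791 and from 353 to 762 in the guide tumours. In both genes sgGFP tumours 1 and 2 were the highest of the table and tumour 4 the lowest.

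Cd68 (ENSMUSG00000018774.13, chromosome 11, 69664213 to 69666153, minus strand) had 800, 844, 178 and 150 scaled counts in sgGFP, 520, 439 and 453 in sgCul3, and 625, 213 and 378 in sgKeap1. Csf1r (ENSMUSG00000024621.15), the receptor for CSF1 and IL-34, varied less, from 106 to 360 in sgGFP, 167 to 303 in sgCul3 and 126 to 219 in sgKeap1. Adgre1 (ENSMUSG00000004730.14, chromosome 17, 57358691 to 57483527, plus strand), the adhesion receptor long used to stain mouse macrophages, had 141, 118, 39.0 and 18.8 in sgGFP, 84.3, 181 and 82.1 in sgCul3, and 56.4, 332 and 128 in sgKeap1. Adgre1 was low in sgGFP tumours 3 and 4 like C1q, and high in tumours 2 of both guides like the Kupffer cell genes.

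**Figure D1:**
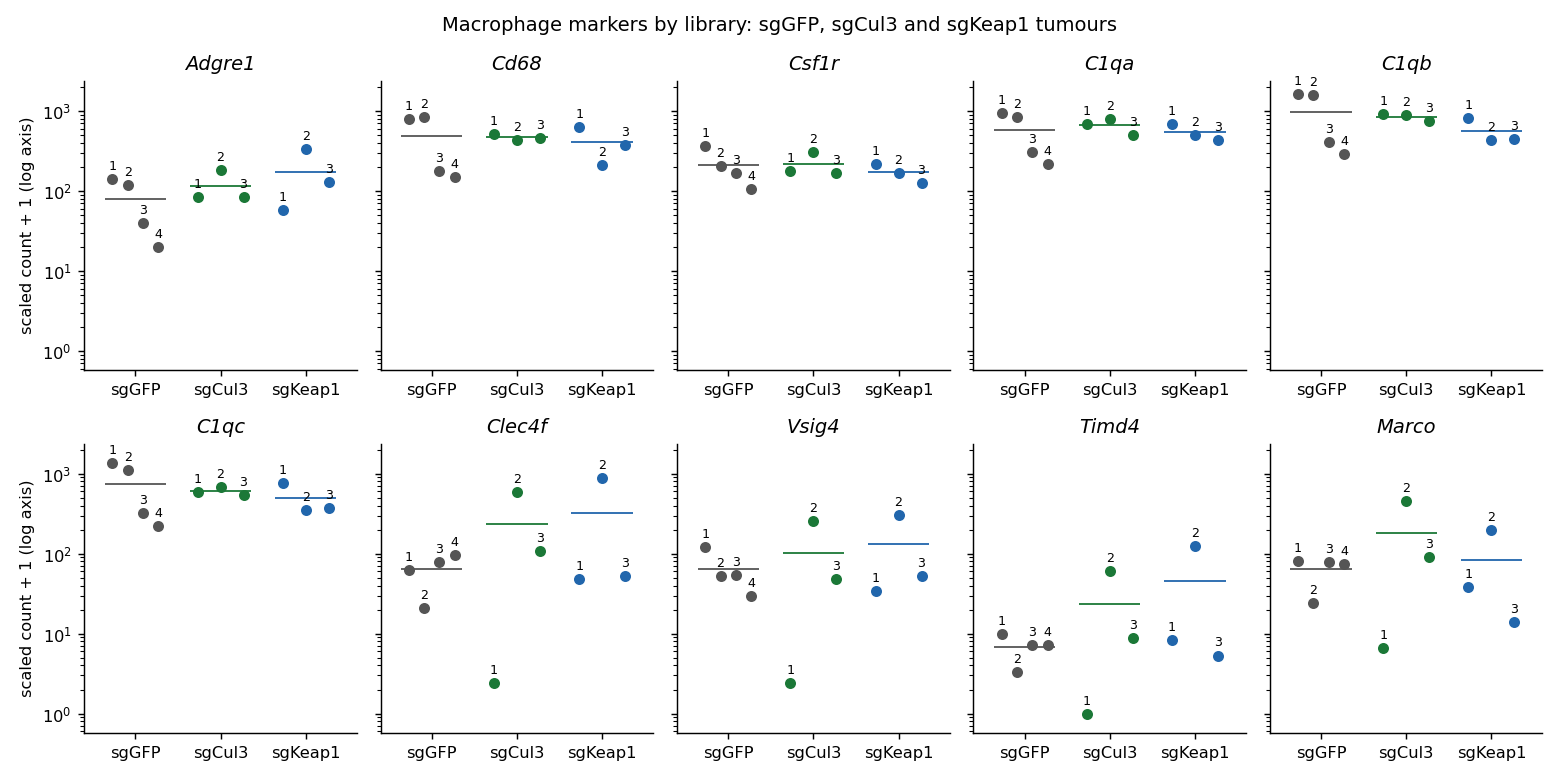
Scaled count plus 1 (log axis) of each member in the 4 sgGFP, 3 sgCul3 and 3 sgKeap1 tumours; digits are tumour numbers and lines group means. Clec4f, Vsig4, Timd4 and Marco are high in tumours 2 of both ligase guides and lowest in sgCul3 tumour 1, while C1qa, C1qb, C1qc and Cd68 are highest in sgGFP tumours 1 and 2 and lowest in sgGFP tumour 4.

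Within groups the members varied more than most genes. The SD of log2 values between libraries of a group was 2.48 for Clec4f, larger than for 99.6% of the 13045 genes tested, and 1.98, 1.96 and 1.86 for Vsig4, Marco and Timd4. It was 1.15 for Adgre1, 0.97 for Cd68, 0.91 for C1qc, 0.89 for C1qb, 0.74 for C1qa and 0.58 for Csf1r, against a median of 0.41 over all genes. Among genes of similar level the SD of Clec4f was above that of 99.5% and the SD of Csf1r above that of 82.2%. Between its highest and its lowest library of the first table Marco differed by a factor of 81.8, Adgre1 by 17.7 and Csf1r by 3.41, while Clec4f and Vsig4 had 1 read each in their lowest library.

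Levels of members were correlated over the 10 libraries of the first table in all 45 pairs, with permutation p-values adjusted over the 45 by the Benjamini-Hochberg method. Pearson's r had an adjusted p under 0.05 in 15 pairs, and 12 of them also passed by Spearman's rho. All 6 pairs among Clec4f, Vsig4, Timd4 and Marco had an r of 0.82 to 0.95 (rho 0.59 to 0.92). It became 0.65 to 0.94 without the 2 libraries farthest from the median of the first gene of the pair. Since sgCul3 tumours 1 and 2 and sgKeap1 tumour 2 were all extreme in these genes, an extreme tumour can remain and hold r high. Clec4f and Timd4 gave r = 0.95 (permutation adjusted p = 0.00079) and rho = 0.83 (adjusted p = 0.019), with r = 0.94 without those 2 libraries. By rho, 3 of these 6 pairs passed. The division into 4 and 6 genes follows their known expression and was made with these values known.

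The 15 pairs among the other 6 genes had an r of 0.37 to 0.98, and 9 of them passed by both measures. C1qb and C1qc were closest, with r = 0.98 (permutation adjusted p = 0.00075), rho = 0.95 (adjusted p = 0.0036) and r = 0.97 without the 2 farthest libraries. Of the 24 pairs that join a Kupffer cell gene with a general one, 0 passed, r ran from -0.43 to 0.55 and 13 of them were below 0. For Cd68 and Clec4f r was -0.43 (permutation adjusted p = 0.48) and rho -0.59 (adjusted p = 0.19). After subtraction of group means, r was 0.90 to 0.97 among the 4 genes and -0.43 to 0.62 between the sets.

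Summed CPM show the same. Clec4f, Vsig4, Timd4 and Marco together had 34.3, 10.6, 22.7 and 19.4 CPM in sgGFP tumours 1 to 4, 0.947, 141 and 29.4 in sgCul3 and 13.5, 114 and 12.4 in sgKeap1. Per 100 CPM of the 6 general genes, this made 5.17, 2.06, 15.2 and 20.2 in sgGFP, 0.277, 41.4 and 10.1 in sgCul3, and 3.93, 75.1 and 6.44 in sgKeap1. In the second table the ratio was 2.55 in control A and 26.7 in control B, against 0.120 in sgNrf2 A and 0.0566 in sgNrf2 B. The sgNrf2 tumours and sgCul3 tumour 1 thus held general macrophage transcripts, at 521, 551 and 342 CPM. They held very little of these 4 Kupffer cell genes. A further list of Kupffer cell genes, described below, summed to 706 to 826 CPM in sgNrf2 against 275 to 718 in the controls. Such a sum follows the most abundant genes of the list, and its genes differed. In sgNrf2 9 of 12 tested had a log2 fold change above 0, whereas Cd163 averaged 5.80 scaled counts against 66.9 in the controls.

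**Figure D2:**
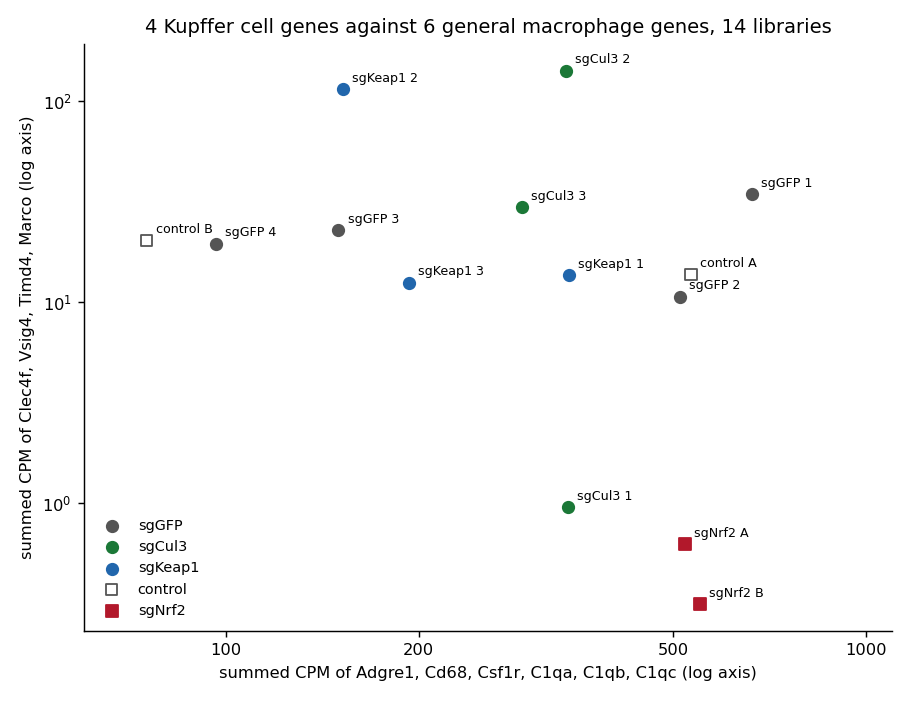
Each point is a library: the x axis sums CPM of Adgre1, Cd68, Csf1r, C1qa, C1qb and C1qc, the y axis sums CPM of Clec4f, Vsig4, Timd4 and Marco (both log axes). The sgNrf2 tumours and sgCul3 tumour 1 lie below 1 CPM on the y axis although their x values are 342 to 551 CPM.

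Markers of other cells were read in the same libraries. The 11 hepatocyte markers summed to 37421 CPM in sgCul3 tumour 2 and to 93525 in sgKeap1 tumour 2, against 17065 to 36845 in the other 8 libraries of that table. The 13 endothelial markers summed to 180 CPM in sgKeap1 tumour 2, to 116 in sgCul3 tumour 2, and to 58.9 to 196 in the others. In sgKeap1 tumour 2 the 10 most abundant genes took 24.5% of all genic reads, against 8.10% to 18.0% elsewhere in that table. The part of these differences in the levels of the members was not tested.

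Genes whose levels were most like the mean of the standardised members over the 10 libraries, among 13035 others, were Slc16a9 (r = 0.92), Clec4a3 (0.91), Pyhin1 (0.91), I830077J02Rik (0.91), Fcna (0.91), Siglec1 (0.91), Plcg2 (0.90), Cybb (0.90), Dock2 (0.88), Clec1b (0.88), P2ry13 (0.88) and Lair1 (0.88). Fcna, a ficolin of the lectin pathway of complement, ranged from 136 to 576 scaled counts and Siglec1, a sialic acid receptor of macrophages, from 4.14 to 43.9. The closest to the mean of Clec4f, Vsig4, Timd4 and Marco alone were Serping1 (r = 0.95), Aadat (0.95), Colec10 (0.95), Clec4g (0.95) and Hrg (0.94), a set added after the values were seen. Clec4g is a lectin of liver sinusoidal endothelium, and Hrg and Aadat are expressed by hepatocytes. The closest to the mean of the 6 general genes were Sirpa (0.97), Lrrc25 (0.97), Fcgr4 (0.96), P2ry13 (0.96) and Cyth4 (0.95), of which Sirpa and Fcgr4 encode a receptor for CD47 and an Fc receptor of myeloid cells. These correlations describe 10 libraries that share preparation and scaling, and no p is given.

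Activation of NRF2 through its ligase was compared first, sgCul3 and sgKeap1 each against sgGFP. None of the 10 members passed in either comparison with limma (adjusted p under 0.05 over 13045 genes), and edgeR and DESeq2 called 0 too. Over all genes tested, limma called 2.20% in sgCul3 and 7.82% in sgKeap1. At an unadjusted p under 0.05, 0 of 10 passed in both. The scaled counts of every member overlapped between guide and control tumours, whereas 16.2% of all genes did not overlap in sgCul3 and 25.8% in sgKeap1.

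In sgCul3 the members' log2 fold changes ran from -0.72 to 0.83 with a median of 0.19, against 0.01 over all genes. Adgre1 averaged 116 ± 56.4 scaled counts in sgCul3 (SD, n = 3) and 79.2 ± 59.5 in sgGFP (n = 4). Its log2 fold change was 0.83 ± 0.72 (SE, limma adjusted p = 0.61). Clec4f averaged 233 ± 315 against 63.8 ± 32.6, and its log2 fold change of 0.07 ± 1.52 (limma adjusted p = 0.99) became -1.59 without sgCul3 tumour 2. Vsig4 had a log2 change of -0.72 ± 1.22 (limma adjusted p = 0.81), which was 0.97 without sgCul3 tumour 1 and 0.68 with edgeR and with DESeq2. For Timd4 it was 0.51 ± 1.19 (limma adjusted p = 0.87), and -0.76 without sgCul3 tumour 2. The direction of these Kupffer cell genes in sgCul3 therefore depended on 1 tumour.

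In sgKeap1 the median of the members was 0.08 and their range -0.46 to 1.38, against a median of -0.01 over all genes. Adgre1 averaged 172 ± 143 scaled counts in sgKeap1 (SD, n = 3), and its log2 fold change was 1.14 ± 0.72 (SE, limma adjusted p = 0.31). Timd4 had 45.1 ± 68.0 against 5.88 ± 2.67, a log2 change of 1.38 ± 1.19 (limma adjusted p = 0.46) that fell to 0.04 without sgKeap1 tumour 2. Clec4f had a log2 change of 1.20 ± 1.52 (limma adjusted p = 0.62) and Vsig4 one of 0.54 ± 1.22 (limma adjusted p = 0.80), and without sgKeap1 tumour 2 these were -0.17 and -0.40. C1qb, at 568 ± 226 against 978 ± 725 scaled counts, had a log2 change of -0.46 ± 0.56 (limma adjusted p = 0.61).

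With both ligase guides joined in 1 comparison against sgGFP, 0 of 10 members passed with limma, edgeR or DESeq2, 0 had an unadjusted p under 0.05 with limma, and 7.56% of all genes were called by limma. The median log2 fold change of the members was 0.07, with a range of -0.14 to 0.99 (limma adjusted p 0.32 to 0.99). Between sgKeap1 and sgCul3 0 of 10 passed with each tool and 0 at an unadjusted p under 0.05, where limma called 0.0613% of all genes. The median there was -0.29, with a range of -0.64 to 1.26. The 3 comparisons with sgGFP share their control tumours.

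The second table compared sgNrf2 with controls A and B. Here Clec4f, Marco, Vsig4 and Timd4 were low in both sgNrf2 tumours. Clec4f had 60.4 scaled counts in control A and 167 in control B, against 1.62 in sgNrf2 A and 0.874 in sgNrf2 B. Marco had 69.0 and 161 against 0.810 and 1.75, Vsig4 122 and 101 against 7.29 and 0.874, and Timd4 10.8 and 24.0 against 0.810 and 1.75. In all 4 genes both sgNrf2 tumours were below both controls. Over all 13989 genes tested, 64.0% had groups that did not overlap, in either direction.

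In reads, Clec4f had 188 over the controls and 3 over sgNrf2, a scaled ratio of control to sgNrf2 of 91.2 (exact 95% counting interval 30.7 to 446). Marco had 191 against 3, a ratio of 89.8 (30.3 to 439), Vsig4 193 against 10, a ratio of 27.3 (14.5 to 57.9), and Timd4 29 against 3, a ratio of 13.6 (4.22 to 69.8). Leaving out control A, control B, sgNrf2 A or sgNrf2 B in turn gave ratios of 48.4 to 134 for Clec4f, 53.9 to 142 for Marco, 15.3 to 128 for Vsig4 and 8.43 to 21.5 for Timd4. These intervals cover counting error only.

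Of the 9 members that passed the filter of a mean deposited value of 10, Clec4f and Marco were called by limma, both lower in sgNrf2. Clec4f, Marco and Vsig4 passed the filter only through the controls. Their means were 114, 115 and 112 scaled counts in the controls and 1.25, 1.28 and 4.08 in sgNrf2. Timd4 did not pass this filter and was not tested. Over all 13989 genes tested, limma called 4.41%, and 2.51% as lower in sgNrf2. The log2 fold change was -5.52 ± 0.72 for Clec4f (SE, limma adjusted p = 0.039, 1.51e-06 to 0.098 over the alternatives) and -5.58 ± 0.68 for Marco (limma adjusted p = 0.036, 6.87e-07 to 0.093). Vsig4, at -4.83 ± 0.85, did not pass (limma adjusted p = 0.051). It passed with DESeq2 and with the replicate letter as a block (limma adjusted p = 0.038). Letters A and B were not taken to pair controls with sgNrf2 tumours, so the fit with the block is only an alternative. Without sgNrf2 A or without sgNrf2 B, 0 members were called, and all genes called were 69 and 58.

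None of the 6 general macrophage genes passed in sgNrf2 with limma or edgeR, DESeq2 called 1, and 2 had an unadjusted p under 0.05 with limma. Adgre1 had 166 scaled counts in control A, 51.9 in control B, 388 in sgNrf2 A and 406 in sgNrf2 B, and its log2 fold change was 2.08 ± 0.59 (SE, limma adjusted p = 0.10, 0.021 to 0.37 over the alternatives). Csf1r had 533 and 214 against 891 and 922, with a log2 change of 1.42 ± 0.46 (limma adjusted p = 0.12). Both genes were higher in both sgNrf2 tumours than in either control. Neither passed with limma, and Adgre1 passed with DESeq2. Of the 9 members tested, 5 had groups that did not overlap, as did 64.0% of all genes.

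Cd68 had 1859 and 202 scaled counts in the controls and 1632 and 1889 in sgNrf2, and C1qb had 3493 and 516 against 2478 and 2519. For C1qa the values were 1802 and 281 against 1609 and 1555, and for C1qc 2406 and 429 against 1796 and 1968. Control A was thus near or above the sgNrf2 tumours in these 4 genes and control B far below. Their log2 fold changes of 1.51 ± 1.03 (Cd68), 1.15 ± 0.87 (C1qa), 0.89 ± 0.89 (C1qb) and 0.89 ± 0.81 (C1qc) did not pass (limma adjusted p 0.36 to 0.53). Without control B they were -0.08, -0.19, -0.48 and -0.36. Without control A, 8 of the 9 tested members passed with limma, all but Vsig4, and 25.8% of all genes did. DESeq2 called 4 members, Adgre1 higher and Clec4f, Marco and Vsig4 lower, and 19.0% of all genes.

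**Figure D3:**
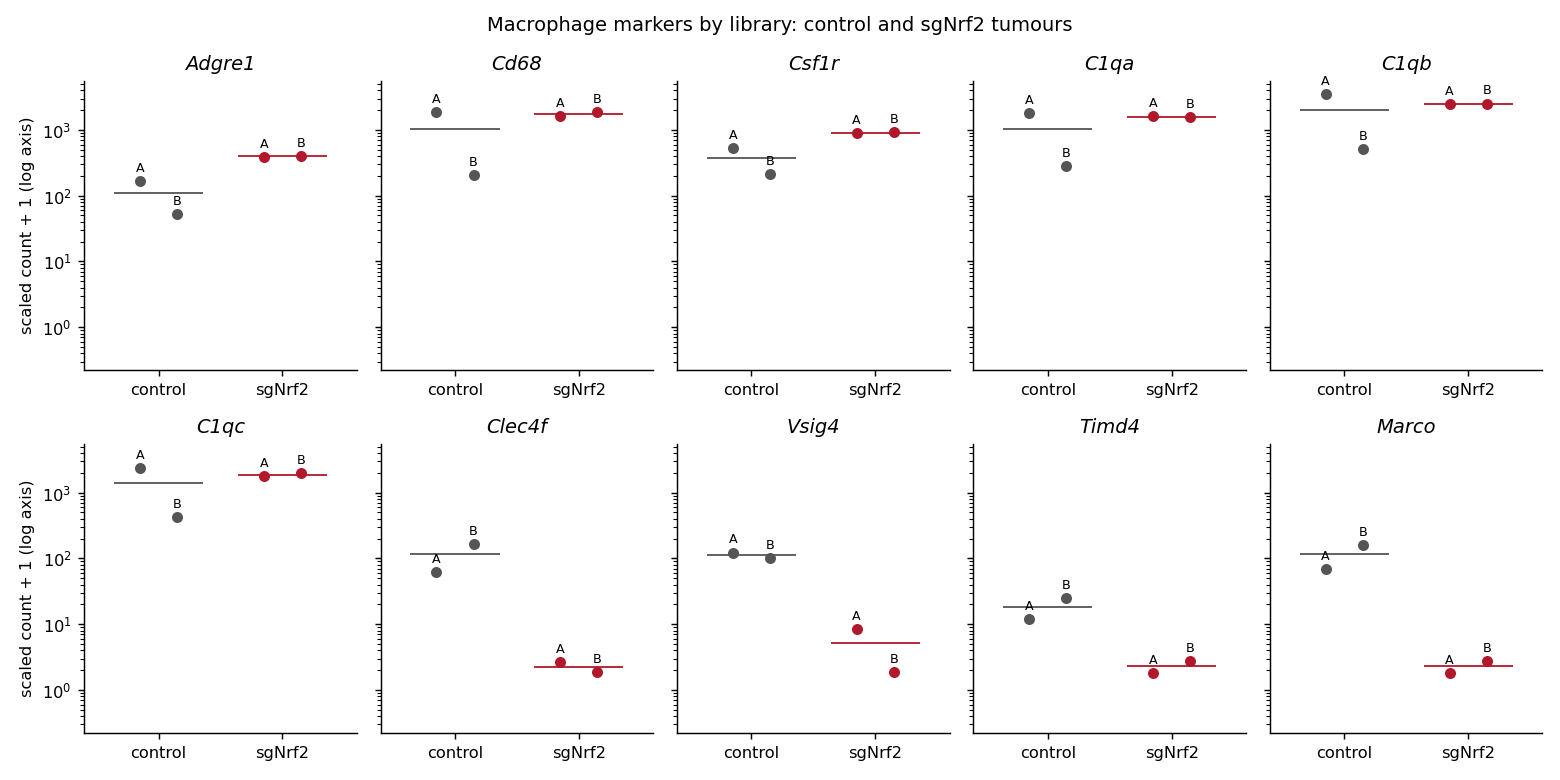
Scaled count plus 1 (log axis) of each member in controls A and B and sgNrf2 tumours A and B, with group means as lines. Clec4f, Vsig4, Timd4 and Marco are lower in both sgNrf2 tumours than in both controls, and for Cd68, C1qa, C1qb and C1qc control B lies far below the other 3 libraries. Over all genes tested, 64.0% had groups that did not overlap, in either direction.

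**Figure D4:**
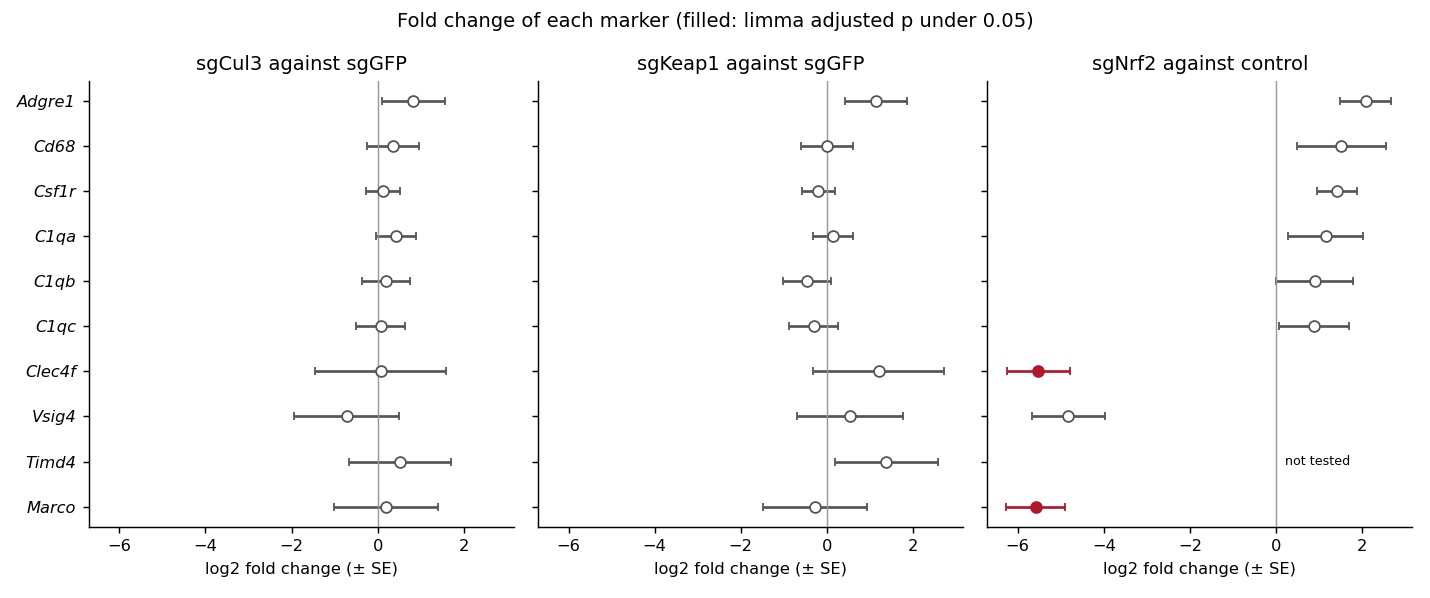
Log2 fold change with its SE (x axis) of each member (y axis) in 3 comparisons; filled points have a limma adjusted p under 0.05. Clec4f and Marco in sgNrf2 are filled, at -5.52 and -5.58.

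The controls of the second table could be set beside the tumours they repeat. In CPM, all 10 members differed in the same direction between control B and control A as between sgGFP tumours 4 and 2, as did 72.8% of all genes. C1qb had 172 CPM in sgGFP tumour 2 and 181 in control A, and 28.0 in sgGFP tumour 4 and 22.9 in control B. Clec4f had 2.17 and 3.14 CPM in the first pair and 9.15 and 7.41 in the second. The low C1q and Cd68 and the higher Clec4f and Marco of tumour 4 were thus read again in its repeat. On the log2 scale of CPM the members differed by 0.016 to 1.16 between tumour 2 and control A, and by 0.041 to 0.83 between tumour 4 and control B. On this scale the widest gap was that of Timd4, 0.250 against 0.560 CPM for tumour 2 and its repeat. Cd68 had 14.4 CPM in tumour 4 and 8.98 in its repeat, C1qa 20.9 and 12.5, and Vsig4 2.74 and 4.49.

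**Figure D5:**
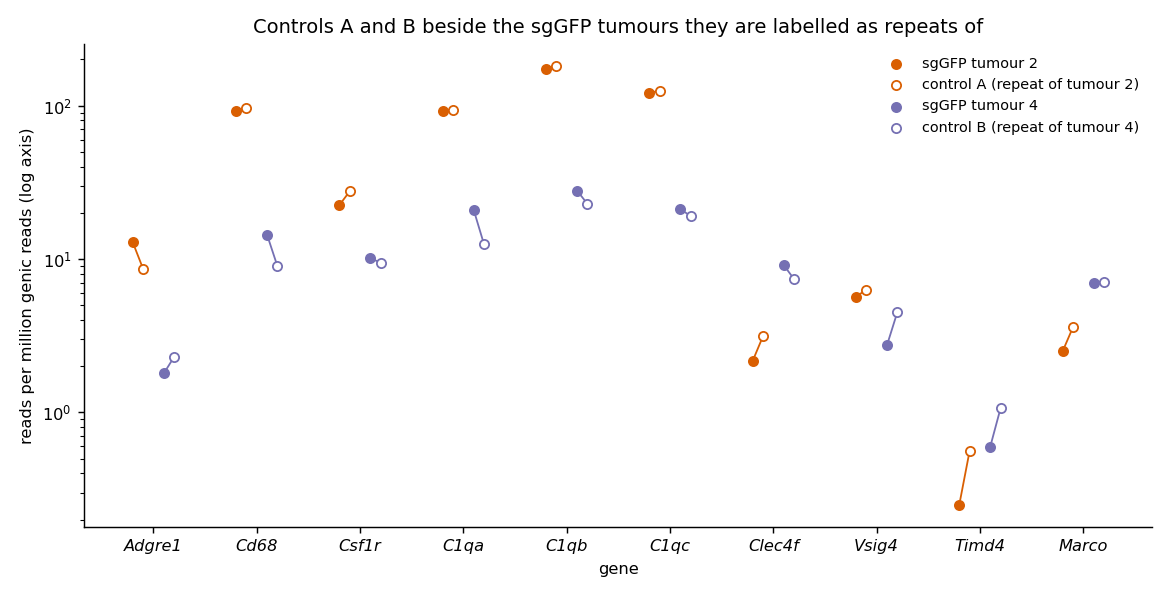
CPM (log axis) of each member in sgGFP tumours 2 and 4 (filled) and in the control libraries that repeat them, A and B (open). C1qb lies at 172 and 181 CPM in tumour 2 and control A, whereas Timd4, at 0.250 and 0.560 CPM in the same pair, has the widest gap on this axis.

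Genes that act around these markers were read from lists chosen with earlier results of these data known. Of the CSF1 receptor axis, 8 of 9 listed genes were tested and 0 passed with limma in sgCul3, sgKeap1 or sgNrf2. With both ligase guides joined against sgGFP, Fes of this list passed as lower, where limma called 7.56% of all genes. The ligands Csf1 and Il34 had log2 fold changes in sgNrf2 of 0.36 ± 0.53 and 1.53 ± 0.53 (SE, limma adjusted p = 0.68 and 0.14). Of 20 pan-macrophage genes, 0 passed in each of these 3 comparisons, with medians of 0.30, 0.17 and 0.57. Mpeg1, a pore-forming protein of phagocytes, had 2611 scaled counts in control A and 435 in control B, against 3244 and 4042 in sgNrf2, with a log2 change of 1.76 ± 0.84 (limma adjusted p = 0.23).

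Of 15 further Kupffer cell genes 12 were tested and 0 passed in sgCul3, sgKeap1 and sgNrf2. In sgNrf2 their median log2 fold change was 0.43 and 9 of the 12 were above 0. Summed, the list had 706 to 826 CPM in sgNrf2 and 275 to 718 in the controls, a sum that follows its most abundant genes. Hpgd averaged 1691 scaled counts in sgNrf2 and 757 in the controls, and Cd5l 1467 and 2956. In the first table the sums were 350 to 539 CPM in sgCul3, 401 to 496 in sgKeap1 and 217 to 915 in sgGFP. Cd163, the scavenger receptor for haemoglobin bound to haptoglobin, had 60.4 and 73.4 scaled counts in the controls and 8.10 and 3.50 in sgNrf2, with a log2 change of -3.40 ± 0.60 (limma adjusted p = 0.051). In the first table Cd163 was highest in sgKeap1 tumour 2 (105) and sgCul3 tumour 2 (92.2) and lowest in sgCul3 tumour 1 (2.76). Fcna had 882 and 265 scaled counts in the controls and 473 and 499 in sgNrf2, with a log2 change of 0.01 ± 0.59 (limma adjusted p = 0.99). Cd5l, a scavenger protein secreted by macrophages, had 5419 and 494 against 666 and 2267. The Kupffer cell genes thus differed among themselves in sgNrf2.

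Of 14 transcription factors of Kupffer cells, 0 passed in sgCul3 and sgNrf2 and Rxra, the partner of the liver X receptor, was lower in sgKeap1 with a log2 change of -0.96 ± 0.25 (limma adjusted p = 0.040). Nr1h3, the liver X receptor of Kupffer cells, had 1628 ± 60.7 scaled counts in sgNrf2 and 906 ± 263 in the controls (SD, n = 2 each), with a log2 change of 0.88 ± 0.26 (limma adjusted p = 0.11). Spic, a factor of macrophages that recycle iron, had 1.16 ± 0.90 (limma adjusted p = 0.42). Both genes are also expressed in other cells or macrophages. Nor does bulk RNA show which cells Rxra was read from, at 1848 ± 613 scaled counts in sgGFP (SD).

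Among 14 genes of monocytes and recruited macrophages, Chil3, a chitinase-like protein of monocytes and neutrophils, fell in sgKeap1 with a log2 change of -3.38 ± 0.79 (limma adjusted p = 0.029) and in sgNrf2 with one of -4.82 ± 0.68 (limma adjusted p = 0.042). Spp1, osteopontin, which bile duct cells express as well, rose in sgCul3 (2.61 ± 0.59, limma adjusted p = 0.048) and in sgKeap1 (2.23 ± 0.59, limma adjusted p = 0.044). Cd9 rose in sgKeap1 (0.84 ± 0.23, limma adjusted p = 0.048), and bulk RNA does not show which cells its transcripts came from. The remaining genes of that list did not pass. Ccr2, the receptor that brings monocytes out of the marrow, had 50.1 ± 11.6 scaled counts in sgNrf2 and 37.3 ± 20.5 in the controls, with a limma adjusted p of 0.57.

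Of the chemokines, 1 of 9 tested passed in sgKeap1, Cxcl16 at 1.51 ± 0.40 (limma adjusted p = 0.045), 0 of 9 in sgCul3 and 0 of 10 in sgNrf2. With both ligase guides joined, Cxcl10 alone of this list passed, as higher. Of 15 genes of efferocytosis and scavenging, Gas6, the bridge between dying cells and the receptor MERTK, rose in sgCul3 (1.81 ± 0.41, limma adjusted p = 0.048) and sgKeap1 (2.24 ± 0.41, limma adjusted p = 0.010). Its log2 fold change in sgNrf2 was 3.91 ± 0.75 (limma adjusted p = 0.056). With both ligase guides joined, Gas6 passed as higher and Stab2 of the same list as lower. In MHC class II presentation, Ciita, the activator of class II genes, rose in sgNrf2 from 1.71 ± 0.630 to 33.9 ± 5.91 scaled counts (limma adjusted p = 0.047), 1 of 8 genes tested. Ciita passed the filter on the mean only through the sgNrf2 tumours, and limma called 4.41% of all genes there. In sgCul3 and sgKeap1 0 of 7 passed. Of the 14 complement partners and receptors, which include C1ra, C1s1 and C3, 0 passed in these 3 comparisons.

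Endothelial genes did not share a direction in sgNrf2, where the median log2 fold change of the 13 tested was 0.03. Lyve1, a hyaluronan receptor of sinusoidal endothelium, had 181 scaled counts in control A and 98.7 in control B, against 18.6 and 7.87 in sgNrf2, with a log2 change of -3.35 ± 0.62 (limma adjusted p = 0.054). It fell in sgCul3 (-3.44 ± 0.67, limma adjusted p = 0.028), with 1.38 scaled counts in tumour 1. Pecam1, found in all endothelium, rose in sgNrf2, from 332 and 304 scaled counts in the controls to 864 and 820 (limma adjusted p = 0.044). Of the 13 endothelial genes tested, Pecam1 alone passed in sgNrf2, and their sum was 176 and 184 CPM against 90.9 and 82.6 in the controls.

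Most calls among these other genes depended on 1 library, control libraries among them. Without either sgNrf2 tumour those of Chil3, Ciita and Pecam1 in sgNrf2 were lost, with limma adjusted p-values of up to 0.097, 0.28 and 0.32. Without sgCul3 tumour 1 those of Spp1, Gas6 and Lyve1 in sgCul3 were lost (limma adjusted p = 0.21, 0.21 and 0.11). In sgKeap1, Chil3, Spp1 and Cxcl16 did not pass without tumour 2 (limma adjusted p = 0.12, 0.16 and 0.12), nor Rxra and Cd9 without tumour 3 (0.14 and 0.15). Several of these were also lost without 1 of the sgGFP tumours. Gas6 in sgKeap1 passed under each alternative run, with a highest adjusted p of 0.043.

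Neutrophil and erythroid genes were low in sgNrf2 as well. The sum of 13 neutrophil genes was 588 CPM in control A and 241 in control B, against 15.6 and 40.2 in sgNrf2, and 4 of 12 tested passed as lower. Of 12 erythroid genes 9 passed as lower, with a sum of 909 and 577 CPM against 1634 and 1585. In sgKeap1, 9 of 12 neutrophil and 7 of 12 erythroid genes passed as lower, and in sgCul3 0 and 5. The share of all values that stood for reads aligned to more than 1 place was 45.0% and 46.4% in sgNrf2 and 56.8% and 58.0% in the controls. The part of these differences in the fall of Clec4f and Marco was not tested.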

How the data were processed

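Total RNA of 14 libraries was sequenced after a Qiagen extraction and an Illumina TruSeq library kit, per the labels. The authors deposited 2 tables of scaled counts, a signal in the sense of read counts divided by a size factor, with the submitters' processing notes naming Picard, HTSeq, DESeq and the build mm10. Aligner and versions: not given in the sources used here. Every value of the deposited sgGFP, sgCul3 and sgKeap1 table had 1 added, which was removed for the levels printed here. In each library 100% of values were then whole multiples of the value of 1 read (tolerance 0.1 reads), so reads were recovered. The second table has 4 more entries for reads of no gene, which were left out of totals and tests. Their largest, reads aligned to more than 1 place, held 45.0% to 58.0% of a library's values. Coordinates and exon lengths are from GENCODE M21.

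The main test was limma 3.58.1 (R 4.3.3) on log2(deposited value + 1), two-sided, with a mean-variance trend, for genes whose mean reached 10. A gene was called where its p, adjusted by Benjamini-Hochberg over all genes, was under 0.05. sgGFP, sgCul3 and sgKeap1 shared their estimate of the spread. Fold changes on this scale understate the change of low genes. Tables were scaled separately and tested separately. edgeR 4.0.16 and DESeq2 1.42.0 were run on recovered reads as alternatives, and the test scripts were tested on simulated data. The simulation gave every gene the same spread, so it does not show which changes could be detected in the more variable members. Other alternatives were a pseudocount of 5, no filter, a mean of at least 50, equal totals, the groups compared alone, a replicate block, each library left out, and, chosen after seeing the data, removal of the added 1. For sgGFP and sgCul3, tumours with the same number deviated together from their group means (r = 0.16, 0.18 and 0.31, all over 0.1). The numbers were therefore taken to pair these tumours, from the data, although the labels state no such pairing. Between these groups, tumours of different numbers reached r = 0.077 at most. Between sgCul3 tumour 1 and sgKeap1 tumour 3, which also differ in number, r was 0.26. The fit with the replicate block is an alternative, and values in the text are from the fit without it unless the block is named. In the other comparisons neither the numbers nor the letters were treated as pairing. Same-number tumours of sgCul3 and sgKeap1 gave r = 0.24, 0.52 and 0.098, with 0.52 between the tumours 2 of both guides. Those of sgGFP and sgKeap1 gave 0.20, 0.043 and -0.094. Correlations used 100000 permutations. The members and gene lists were chosen with earlier results of these data known. Named genes are the members, up to 3 genes per list and comparison with the smallest adjusted p, defining genes of lists, and the 12 genes most like the members, of which not all are described.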

Additional observations from a re-analysis of the deposited data

Results flagged for a closer look

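Marco in the sgGFP tumours was set apart by 1 low library. Tumour 2 had 23.0 scaled counts against 72.5 to 81.0 in tumours 1, 3 and 4, a gap of 0.854 of the whole range, above Dixon's 95% critical value for 4 samples. The 10 members and the sums of the 4 and of the 6 genes, 12 sets of values, were examined in this way and only Marco was set apart. Chance alone sets apart about 1 in 20 such groups. Control A, labelled as a repeat of that tumour, had 3.58 CPM of Marco beside 2.50 CPM in tumour 2.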

How the results depend on the processing

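The count of members called stayed at 0 under each alternative run in the 4 comparisons of the first table, the replicate block included. In sgNrf2 it was 2, but 4 with DESeq2, 0 with a mean of at least 50, and 0 to 8 when libraries were left out, 0 without sgNrf2 A or B and 8 without control A. The median log2 fold change of 0.89 in sgNrf2 ran from -0.36 without control B to 2.13 without control A. With a replicate block in sgNrf2, 3 members were called, Vsig4 being added, and in sgCul3 the replicate block left 0 called. Letters A and B were not taken as pairing in sgNrf2. Over all genes, DESeq2 called 926 in sgCul3, 2143 in sgKeap1, 2052 in both guides, 104 between the guides and 2651 in sgNrf2, where limma called 287, 1020, 986, 8 and 617. Some values that did not pass changed sign. In sgCul3, Vsig4 was 0.68 with edgeR and 0.68 with DESeq2, and Clec4f was -0.077 with the added 1 removed. With libraries left out, Clec4f ran from -1.59 to 2.14 in sgCul3 and from -0.17 to 1.93 in sgKeap1, Vsig4 from -2.16 to 0.97 and from -0.40 to 1.16, and Timd4 in sgCul3 from -0.76 to 1.72. In sgNrf2, Cd68 ran from -0.082 to 3.11, C1qa from -0.19 to 2.49, C1qb from -0.48 to 2.27 and C1qc from -0.36 to 2.13. Where 1 library of a group of 2 was left out, the remaining one was assumed to vary like the other group. The causes of these changes were not tested.

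Depth limits Timd4 and, in sgNrf2, the 4 Kupffer cell genes, which had 3 to 10 reads over both tumours. In sgNrf2 the controls differ widely in C1q and Cd68, and calls among the 6 general macrophage genes depended on the tool and on control A: limma called 0, DESeq2 called Adgre1, and limma without control A called all 6. Leaving out either sgNrf2 tumour ended the calls of Clec4f and Marco, while the direction held under every alternative run.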
